A study of Homo sapiens with 21 samples.

Results

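The lysyl oxidases are a family of 5 human genes, LOX, LOXL1, LOXL2, LOXL3 and LOXL4, and were taken as the 5 rows with these symbols among 60728 gene identifiers measured by RNA-Seq in the neuroblastoma cell line SK-N-BE(2). The family was chosen on these data because LOXL2 was lower than Control in every condition in which ARID1A or ARID1B was silenced. The difference of LOXL2 from Control is therefore given as a description with no test, and the question is whether its 4 paralogs fell as well. They did not fall together. LOXL3 fell in 4 of 6 silenced conditions, LOXL1 in 2, LOX in 1 and LOXL4 in 1, while LOX rose in 5, LOXL4 in 4 and LOXL1 in 1. The LOX counts rest on small differences, and without Control replicate 2, or without Control replicate 3, LOX rose in 3 conditions and fell in 0. In the same comparisons 63.9% to 76.1% of all 18584 genes tested passed the threshold, about as many lower as higher.

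Lysyl oxidases are copper-dependent amine oxidases of the extracellular matrix. They oxidise lysine side chains of collagens and elastin, and the aldehydes so formed condense into the cross-links that make these fibres stiff and insoluble. LOX and LOXL1 are secreted as pro-enzymes and are best known for fibrillar collagen and elastic fibres, whereas LOXL2, LOXL3 and LOXL4 carry scavenger receptor cysteine-rich domains, and LOXL2 is known for its action on collagen IV and for its link to a mesenchymal phenotype. ARID1A and ARID1B are alternative structural subunits of BAF, a form of the SWI/SNF chromatin remodeller.

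All libraries came from the same established line, transduced with lentiviral particles that carried shRNAs, short hairpin RNAs which lower a chosen transcript, and harvested 72 h later in biological triplicate. The 7 conditions of 3 libraries each were Control (a non-silencing control), shARID1A.2 and shARID1A.4, shARID1B.2 and shARID1B.3, and the combinations shARID1A/B.2.3 and shARID1A/B.4.2. Each condition is therefore 1 hairpin or 1 pair of hairpins in 1 cell line. Recovered reads ranged from 27954334 to 41077638 per library, and all 21 pairs of replicate libraries differed beyond sampling noise, so each library was counted separately. Values are normalized read counts, which are the reads on a gene divided by 1 size factor per library, and log2 differences are on the scale of log2 of this value plus 1. A difference was called at an adjusted p-value under 0.05 in limma's test across all 18584 genes and 7 conditions.

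The targeted genes were examined first, because they decide what the labels mean. ARID1A was at 6097 to 6463 in Control, 2109 to 2169 in shARID1A.2, 2157 to 2289 in shARID1A.4, 1882 to 1962 in shARID1B.2 and 2450 to 2507 in shARID1B.3, but at 5510 to 5752 in shARID1A/B.2.3 and 5352 to 5589 in shARID1A/B.4.2. ARID1B was at 5791 to 5804 in Control, 2224 to 2252 in shARID1A.2, 3065 to 3126 in shARID1A.4, 4913 to 5056 in shARID1B.2, 6038 to 6182 in shARID1B.3, 2540 to 2651 in shARID1A/B.2.3 and 1881 to 1955 in shARID1A/B.4.2. The libraries labelled shARID1A thus had both transcripts low (ARID1A at 34.0% and 35.5% of the Control mean, ARID1B at 38.7% and 53.5%). Those labelled shARID1B had ARID1A low (30.4% and 39.3%) with ARID1B at 86.3% and 105%, and those labelled shARID1A/B had ARID1B low (44.8% and 32.9%) with ARID1A at 89.7% and 86.2%. These levels go against the labels, which are used below as written, so every condition named is the set of libraries labelled so.

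Bases upstream of the RefSeq start sites (GRCh38.p14) are shown for 3 paralogs that went different ways below, to let their composition be compared. For LOX and LOXL4 this is the run just before the outermost start in GENCODE release 29, and for LOXL3 the run between the 5′ UTRs at its RefSeq start and an exon of the opposite-strand gene DOK1. They lie at chr5:122078361-122078509, chr10:98268251-98268444 and chr2:74553962-74554085, each read on the minus strand from 5′ to 3′. The LOXL3 run is inside the annotated LOXL3 gene, which reaches to 74555690, whereas the LOX and LOXL4 runs are outside their genes. Capitals mark matches on either strand to GGAATG (a TEAD motif), GGGCGG (a GC box) or CAGGTG (an E-box bound by SNAI factors), 3 of the 5 motifs searched.
LOX: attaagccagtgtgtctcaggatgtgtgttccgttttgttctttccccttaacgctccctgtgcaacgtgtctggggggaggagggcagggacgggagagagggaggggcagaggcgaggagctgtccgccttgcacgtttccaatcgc
LOXL3: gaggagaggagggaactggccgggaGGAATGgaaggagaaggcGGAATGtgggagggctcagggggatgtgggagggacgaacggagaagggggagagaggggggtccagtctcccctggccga
LOXL4: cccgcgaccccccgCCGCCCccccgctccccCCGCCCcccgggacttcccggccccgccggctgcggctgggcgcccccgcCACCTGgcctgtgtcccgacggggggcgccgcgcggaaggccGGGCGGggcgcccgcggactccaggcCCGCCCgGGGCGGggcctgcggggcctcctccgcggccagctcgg
Over the full 250 bases before the start, GC content was 55.2% for LOX, 64.4% for LOXL3 and 86.4% for LOXL4. LOXL3 held 2 matches to GGAATG, which occurs in 11.9% of 35116 RefSeq promoter windows of this length. LOXL4 held 6 matches to GGGCGG, present in 42.6% of windows, and 1 to CAGGTG, present in 17.5%, and LOX held 1 to GGGCGG. The motifs of AP-1, TGANTCA (6.6% of windows), and of the TATA box, spelled TATAAA (10.7%), did not occur in the 3 windows. These letters describe the windows and are not shown to be bound.

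The 5 genes lie on 5 chromosomes (GRCh38, GENCODE release 29). LOX spans chr5:122063195-122078360 on the minus strand, LOXL1 chr15:73925989-73952137 on the plus strand, LOXL2 chr8:23297189-23425328 on the minus strand, LOXL3 chr2:74532414-74555690 on the minus strand and LOXL4 chr10:98247690-98268250 on the minus strand. No run of 31 bases in the annotated transcripts of a member was found in those of another, so reads of this length could not be split between paralogs. All 5 passed the filter on low counts.

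LOXL2 was the most abundant member of the family in Control and the one whose values chose the family. Its normalized read counts were 3880, 3780 and 3812 in the Control libraries. They were 587, 608 and 577 in shARID1A.2 and 526, 552 and 529 in shARID1A.4. The 6 libraries with both ARID1A and ARID1B low thus held the lowest LOXL2 values of the series. LOXL2 stood at 1013, 1086 and 1064 in shARID1B.2 and at 722, 848 and 787 in shARID1B.3. It stood at 1218, 1223 and 1227 in shARID1A/B.2.3 and at 1016, 1324 and 1130 in shARID1A/B.4.2. No silenced library came near the Control range. Relative to the Control mean LOXL2 was at 15.4% in shARID1A.2, 14.0% in shARID1A.4, 27.6% in shARID1B.2, 20.5% in shARID1B.3, 32.0% in shARID1A/B.2.3 and 30.2% in shARID1A/B.4.2, or log2 differences of -2.69, -2.83, -1.86, -2.29, -1.64 and -1.73. In such bulk libraries, fewer cells of a kind and less RNA per cell cannot be told apart.

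In order of LOXL2 level, Control came first, then shARID1A/B.2.3, shARID1A/B.4.2, shARID1B.2 and shARID1B.3, and last shARID1A.2 and shARID1A.4. The ranges of shARID1A/B.2.3 and shARID1A/B.4.2 overlapped, as did those of shARID1A/B.4.2 and shARID1B.2, while the other neighbours in this order did not overlap. Differences between silenced conditions were not used to choose the family and were tested for LOXL2 as well. LOXL2 was lower in the libraries labelled shARID1A than in those labelled shARID1B by -0.69 on the log2 scale (SE 0.045, n = 6 and 6, adjusted p = 8.24e-13, limma) and than in those labelled shARID1A/B by -1.07 (SE 0.045, adjusted p = 3.94e-16, limma), with no overlap of the 6 values on either side. It was higher in shARID1A/B than in shARID1B by 0.38 (adjusted p = 3.67e-08, limma), where the ranges overlapped. The 6 libraries of a label come from only 2 conditions. The SEs and p-values of these contrasts measure the spread within conditions, not that between the hairpins of a label. Within a label LOXL2 differed by 0.43 between shARID1B.2 and shARID1B.3 (95% interval 0.30 to 0.56, adjusted p = 1.89e-06, limma). The difference of shARID1A.2 from shARID1A.4 was 0.14 (adjusted p = 0.047, limma), and this call was lost when any 1 of 5 of its 6 libraries was left out. The difference of shARID1A/B.2.3 from shARID1A/B.4.2 was 0.09 (95% interval -0.042 to 0.22, adjusted p = 0.21, limma), and became 0.19 (adjusted p = 0.0029, limma) without shARID1A/B.4.2 replicate 2.

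**Figure D1:**
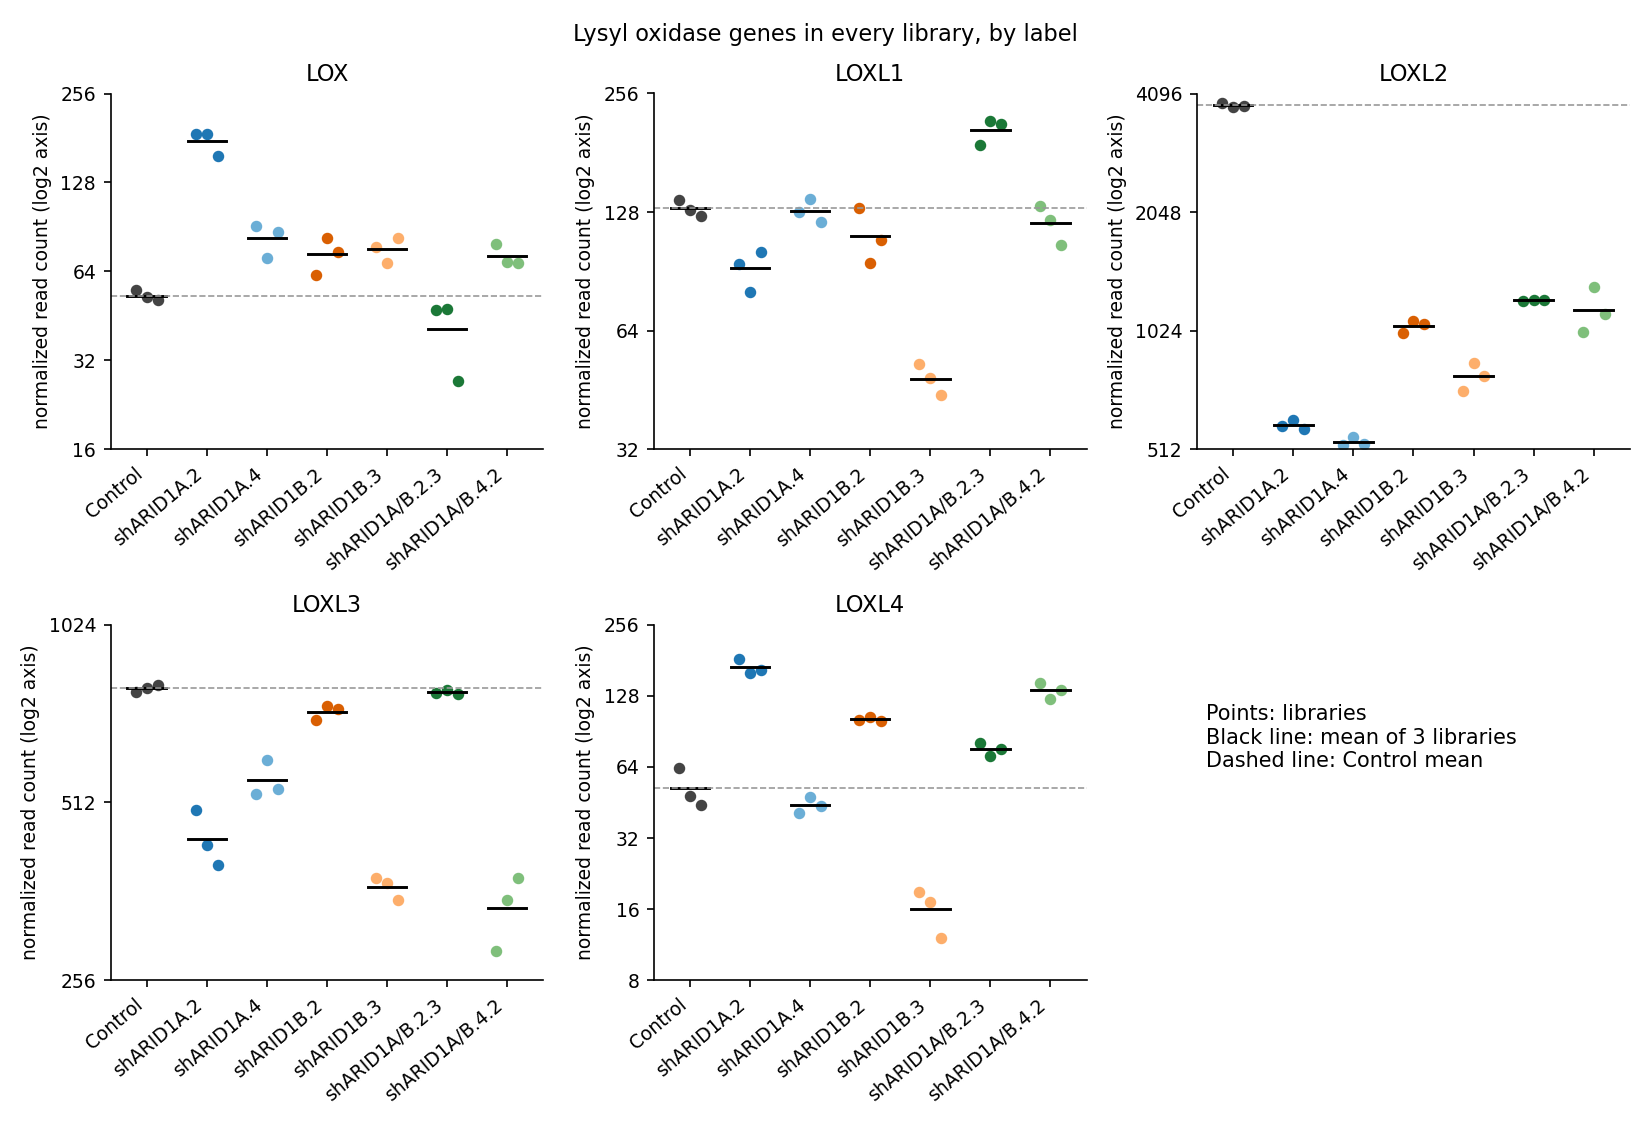
Normalized read count on a log2 axis (each panel with its own limits) of the 5 genes in the 3 libraries (points) of each label, the mean as a black line and the Control mean as a dashed line. LOXL2 is under its Control line in all 18 silenced libraries, whereas LOX and LOXL4 are above theirs in most conditions and LOXL1 and LOXL3 lie near or under theirs in every condition but shARID1A/B.2.3, where LOXL1 is above.

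LOXL3, the family member nearest to LOXL2 in level, was the paralog that fell most often. Its normalized read counts were 788, 800 and 810 in Control. In shARID1A.2 they were 497, 434 and 401, and in shARID1A.4 530, 605 and 540. Both conditions lay wholly under the Control range. LOXL3 was at 705, 744 and 736 in shARID1B.2 but at 382, 374 and 350 in shARID1B.3. It was at 786, 793 and 782 in shARID1A/B.2.3 and at 287, 351 and 382 in shARID1A/B.4.2. For each of the last 2 labels, 1 set of libraries held LOXL3 near the Control level and the other held less. LOXL3 fell by 0.85 in shARID1A.2 (SE 0.080, adjusted p = 6.09e-10, limma), by 0.52 in shARID1A.4 (adjusted p = 2.53e-06), by 1.12 in shARID1B.3 (adjusted p = 7.73e-12) and by 1.24 in shARID1A/B.4.2 (adjusted p = 5.66e-13). In shARID1B.2 the difference was -0.13 (95% interval -0.30 to 0.030, adjusted p = 0.14, limma), although the ranges did not overlap, and in shARID1A/B.2.3 it was -0.023 (95% interval -0.19 to 0.14, adjusted p = 0.81, limma). In the order of levels, Control and shARID1A/B.2.3 overlapped at the top and shARID1B.3 and shARID1A/B.4.2 at the bottom.

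LOXL1, the paralog tied to elastic fibres, had normalized read counts of 137, 130 and 125 in Control. It was at 94.7, 80.3 and 101 in shARID1A.2, and at 128, 138 and 121 in shARID1A.4. The first set lay under Control and the second across it. LOXL1 was at 131, 94.9 and 108 in shARID1B.2 and at 52.8, 48.5 and 44.0 in shARID1B.3, the lowest set. It was at 189, 218 and 214 in shARID1A/B.2.3, the highest set, and at 133, 122 and 106 in shARID1A/B.4.2. LOXL1 fell by 0.51 in shARID1A.2 (SE 0.12, adjusted p = 0.00078, limma) and by 1.42 in shARID1B.3 (adjusted p = 3.91e-10), and rose by 0.66 in shARID1A/B.2.3 (adjusted p = 5.28e-05). The remaining differences were -0.022 in shARID1A.4 (95% interval -0.28 to 0.24), -0.24 in shARID1B.2 (-0.50 to 0.018) and -0.13 in shARID1A/B.4.2 (-0.38 to 0.13), with adjusted p = 0.88, 0.096 and 0.38 from limma. Without shARID1B.2 replicate 1 the difference in shARID1B.2 was -0.36 (adjusted p = 0.020, limma). From Control down to shARID1A.2, each condition overlapped its neighbour in the order of LOXL1 levels.

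LOX, the founding member of the family, was low in Control and higher in most silenced conditions. Its normalized read counts were 55.2, 52.6 and 51.4 in Control. In shARID1A.2 they were 186, 187 and 157, and in shARID1A.4 91.3, 71.4 and 86.8. Both sets lay wholly above Control. LOX was at 62.2, 83.4 and 74.7 in shARID1B.2 and at 77.7, 68.4 and 82.9 in shARID1B.3. It was at 79.3, 68.8 and 68.4 in shARID1A/B.4.2 but at 47.6, 47.9 and 27.2 in shARID1A/B.2.3, the only set under Control. LOX rose by 1.71 in shARID1A.2 (SE 0.17, adjusted p = 2.54e-09, limma) and by 0.63 in shARID1A.4 (adjusted p = 0.0021). Smaller rises of 0.45 in shARID1B.2 (adjusted p = 0.025), 0.51 in shARID1B.3 (adjusted p = 0.012) and 0.43 in shARID1A/B.4.2 (adjusted p = 0.029) were called, as was a fall by 0.41 in shARID1A/B.2.3 (adjusted p = 0.039), all from limma. The last 4 calls were not stable. The fall in shARID1A/B.2.3 became -0.15 (adjusted p = 0.40, limma) without its replicate 3 and was lost under 5 other settings, and the rises in shARID1B.2, shARID1B.3 and shARID1A/B.4.2 were each lost without 1 of the libraries compared (differences of 0.36 to 0.45). Below shARID1A.2, the silenced conditions from shARID1A.4 to shARID1A/B.4.2 overlapped their neighbours in the order of LOX levels.

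LOXL4 showed the widest spread between conditions among the paralogs. Its normalized read counts were 63.4, 48.1 and 44.2 in Control. In shARID1A.2 they were 184, 160 and 165, and in shARID1A.4 40.8, 47.6 and 43.9. Only the first set lay above Control. LOXL4 was at 101, 104 and 100.5 in shARID1B.2 but at 18.9, 17.1 and 12.1 in shARID1B.3, the lowest set. It was at 81.0, 70.9 and 75.9 in shARID1A/B.2.3 and at 145, 124 and 136 in shARID1A/B.4.2. LOXL4 rose by 1.70 in shARID1A.2 (SE 0.15, adjusted p = 3.42e-10, limma), by 0.97 in shARID1B.2 (adjusted p = 5.21e-06), by 0.55 in shARID1A/B.2.3 (adjusted p = 0.0026) and by 1.38 in shARID1A/B.4.2 (adjusted p = 1.85e-08), and fell by 1.64 in shARID1B.3 (adjusted p = 1.22e-09). In shARID1A.4 the difference was -0.22 (95% interval -0.53 to 0.10, adjusted p = 0.21, limma), and this was the only pair of neighbours in the order of LOXL4 levels, Control and shARID1A.4, that overlapped.

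**Figure D2:**
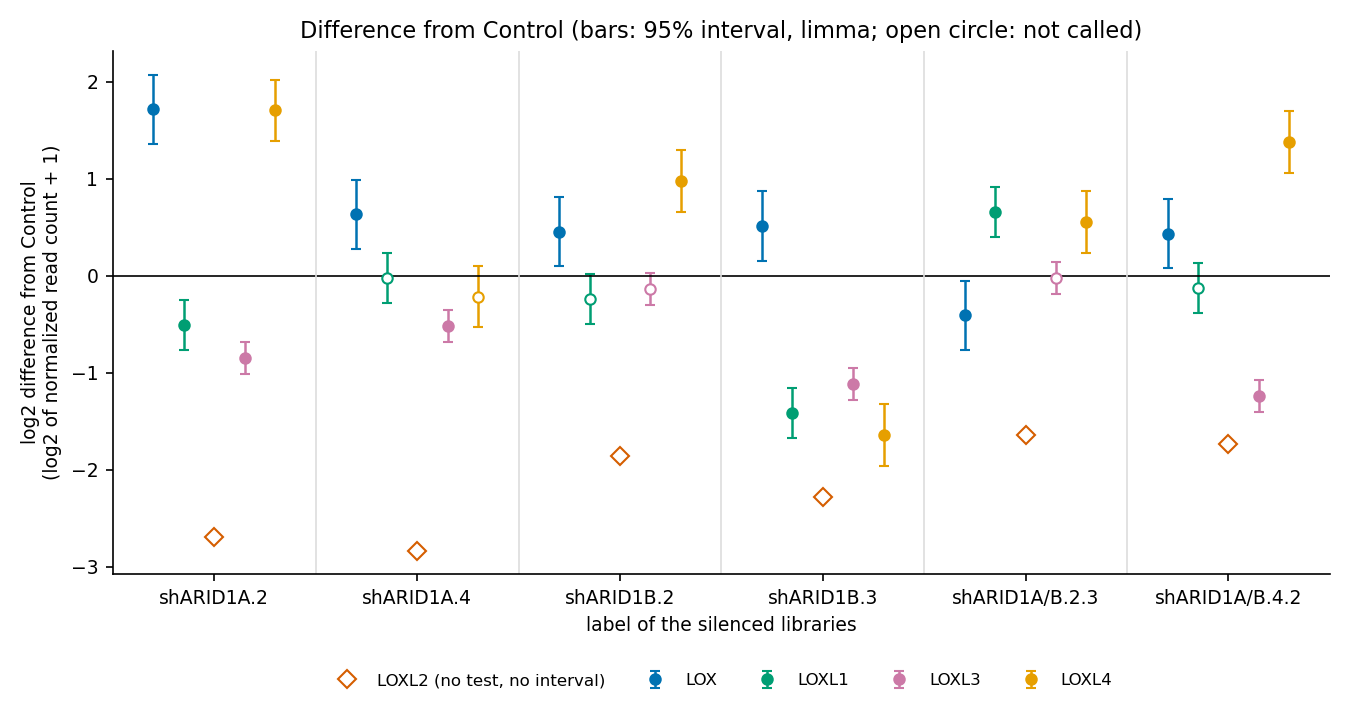
Log2 difference from Control of each gene by label, with the 95% interval from limma (n = 3 and 3). Filled circles were called at an adjusted p-value under 0.05, open circles were not, and LOXL2 (diamonds) is shown with no test. LOXL2 lies between -1.64 and -2.83 throughout, while the 4 paralogs scatter on both sides of 0.

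Read by condition, the paralogs moved with LOXL2 as a set in none of the 6 comparisons. In shARID1A.2, 2 paralogs fell and 2 rose, where 76.1% of all genes were called (38.2% lower, 37.9% higher). In shARID1A.4, 1 fell and 1 rose (background 73.6%, 36.6% lower and 37% higher), and in shARID1B.2 none fell and 2 rose (background 65.6%, 34% lower and 31.6% higher). The closest to a common fall was shARID1B.3, where LOXL1, LOXL3 and LOXL4 fell and LOX rose (background 63.9%, 32% lower and 31.9% higher). In shARID1A/B.2.3, 1 fell and 2 rose (background 69.2%, 34% lower and 35.2% higher), and in shARID1A/B.4.2, 1 fell and 2 rose (background 71.2%, 36.1% lower and 35.1% higher). Over the 24 results for 4 paralogs in 6 conditions, 8 were lower, 10 higher and 6 not called, shares that are near those of all genes. With a change of more than 2-fold also required, LOXL1, LOXL3 and LOXL4 passed as lower in shARID1B.3 (background 6.58% lower and 5.2% higher), and LOX and LOXL4 as higher in shARID1A.2 (background 10.7% lower and 14.1% higher). In shARID1A/B.4.2, LOXL3 passed as lower and LOXL4 as higher (background 8.14% lower and 10.3% higher). No paralog passed it in shARID1A.4 (background 12% lower and 9.32% higher), shARID1B.2 (5.12% and 6.86%) or shARID1A/B.2.3 (9.1% and 7.04%). These comparisons share the 3 Control libraries. Scaled to total reads in place of the size factors, the share of calls that were higher moved from 49.8% to 61.2% in shARID1A.2, from 48.1% to 63% in shARID1B.2 and from 49.3% to 64.8% in shARID1A/B.4.2.

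Conditions that share a label were compared directly, and members differed between them in all 3 labels. LOXL4 was 6.13-fold higher in shARID1B.2 than in shARID1B.3 on the scale of the value plus 1 (log2 difference 2.62, SE 0.15, adjusted p = 1.25e-13, limma) and 3.78-fold higher in shARID1A.2 than in shARID1A.4 (1.92, adjusted p = 3.41e-11), but lower in shARID1A/B.2.3 than in shARID1A/B.4.2 (-0.82, adjusted p = 3.82e-05). LOXL3 differed by 0.98 between shARID1B.2 and shARID1B.3 (adjusted p = 6.44e-11), by 1.22 between shARID1A/B.2.3 and shARID1A/B.4.2 (adjusted p = 6.59e-13) and by -0.33 between shARID1A.2 and shARID1A.4 (adjusted p = 0.00057, limma). Averaged over each label, LOXL3 showed no called difference between labels. Its values were -0.061 for shARID1A minus shARID1B (95% interval -0.18 to 0.055), -0.0073 for shARID1A/B minus shARID1B (-0.12 to 0.11) and -0.054 for shARID1A minus shARID1A/B (-0.17 to 0.062). These intervals measure the spread within conditions, not the differences of 0.98 and 1.22 between the conditions of a label. They therefore do not show that the labels have the same LOXL3 level.

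LOXL1 was higher in shARID1B.2 than in shARID1B.3 by 1.18 (adjusted p = 8.27e-09, limma) and in shARID1A/B.2.3 than in shARID1A/B.4.2 by 0.78 (adjusted p = 4.50e-06), and lower in shARID1A.2 than in shARID1A.4 by -0.49 (adjusted p = 0.0012). LOX was higher in shARID1A.2 than in shARID1A.4 by 1.08 (adjusted p = 4.43e-06, limma) and lower in shARID1A/B.2.3 than in shARID1A/B.4.2 by -0.84 (adjusted p = 0.00011), whereas shARID1B.2 and shARID1B.3 differed by -0.061 (95% interval -0.42 to 0.30). The 5 members gave 5, 4 and 4 calls in these 3 contrasts within a label, where 75.8%, 66% and 74.9% of all genes were called. Between labels they gave 4, 4 and 3 calls for shARID1A minus shARID1B (background 67.3%), shARID1A/B minus shARID1B (70.2%) and shARID1A minus shARID1A/B (59.2%). Fitted as 4 label groups, so that the spread between the 2 conditions of a label counts as error, the calls for LOX, LOXL1 and LOXL4 in these last contrasts were lost in 6 of 8 cases, and those of LOXL2 remained in all 3. This fit still takes the 6 libraries of a label as independent, although they come from 2 conditions, so it does not settle how far the hairpins matter.

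**Figure D3:**
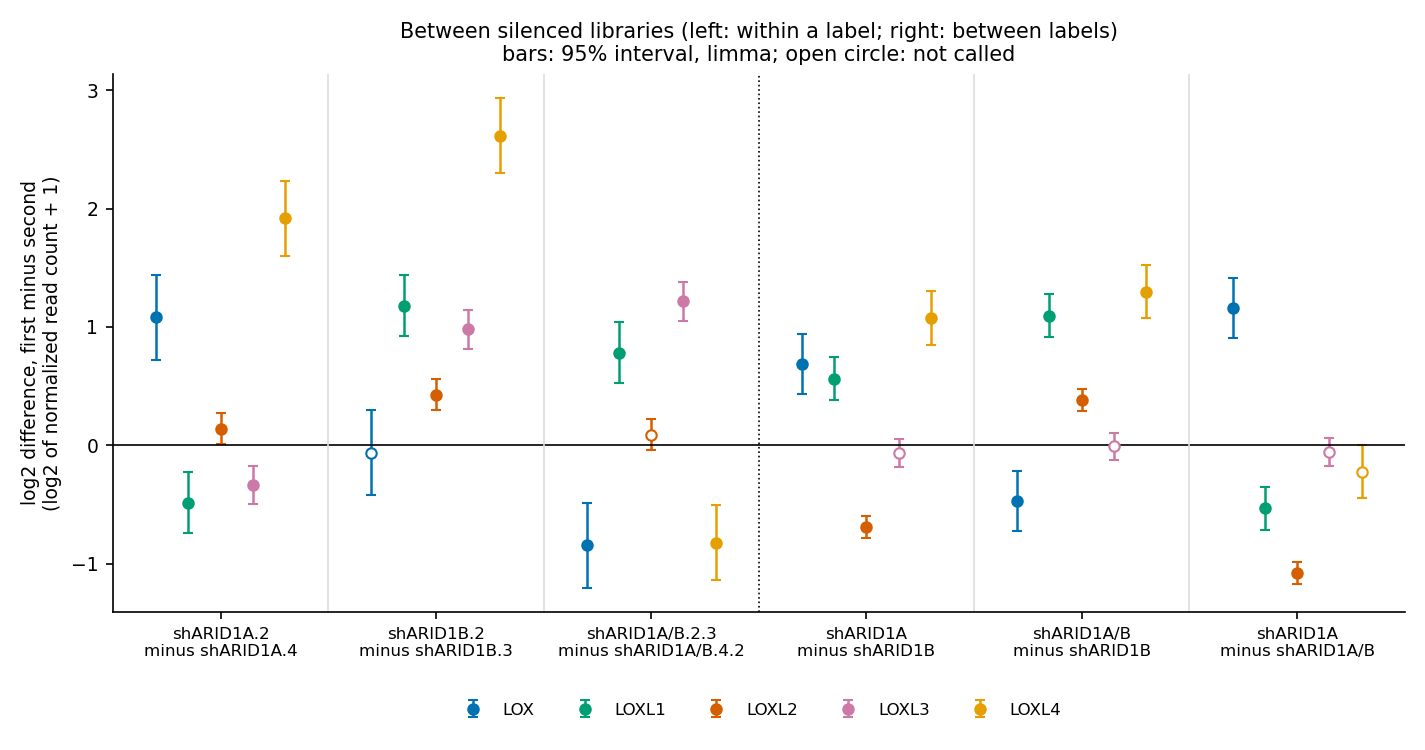
Log2 difference between silenced conditions for the 5 genes, with the 95% interval from limma. The 3 contrasts on the left compare the 2 conditions of a label (n = 3 and 3). The 3 on the right compare the means of labels (n = 6 and 6 libraries, from 2 conditions each), with intervals from the spread within conditions. LOXL4 has the largest difference, 2.62 for shARID1B.2 minus shARID1B.3, and LOXL3 lies on 0 in the 3 contrasts between labels.

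To compare levels between genes, counts were divided by the length of the merged exons of each gene. Per kb, LOXL2 was at 670 ± 8.91 (SD, n = 3) in Control, LOXL3 at 183 ± 2.55, LOXL1 at 36.0 ± 1.68, LOXL4 at 14.2 ± 2.79 and LOX at 9.56 ± 0.35, so that LOXL2 made up 73.4% ± 0.11 of the family and LOXL3 20.1% ± 0.49. In the silenced libraries LOXL2 made up 33.6% ± 1.81 in shARID1A.2, 33.0% ± 0.62 in shARID1A.4, 43.6% ± 0.67 in shARID1B.2, 54.2% ± 2.77 in shARID1B.3, 44.7% ± 0.33 in shARID1A/B.2.3 and 55.6% ± 3.12 in shARID1A/B.4.2. LOXL3 took the largest share in shARID1A.4, with 45.0% ± 1.25 of the family per kb. The share of LOX and LOXL4 together grew most in shARID1A.2, where LOX reached 10.3% ± 0.72 and LOXL4 15.0% ± 0.61, from 1.05% ± 0.029 and 1.55% ± 0.29 in Control. The gains of these low genes did not make up for LOXL2. The summed level per kb was 913 ± 11.1 in Control and stood at 33.8% and 31.1% of it in shARID1A.2 and shARID1A.4, 46.4% and 27.8% in shARID1B.2 and shARID1B.3, and 52.5% and 39.8% in shARID1A/B.2.3 and shARID1A/B.4.2. LOXL2 made up most of the Control sum and its fall chose the family. The lower sums and LOXL2 shares were therefore largely fixed in advance and are only a description.

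**Figure D4:**
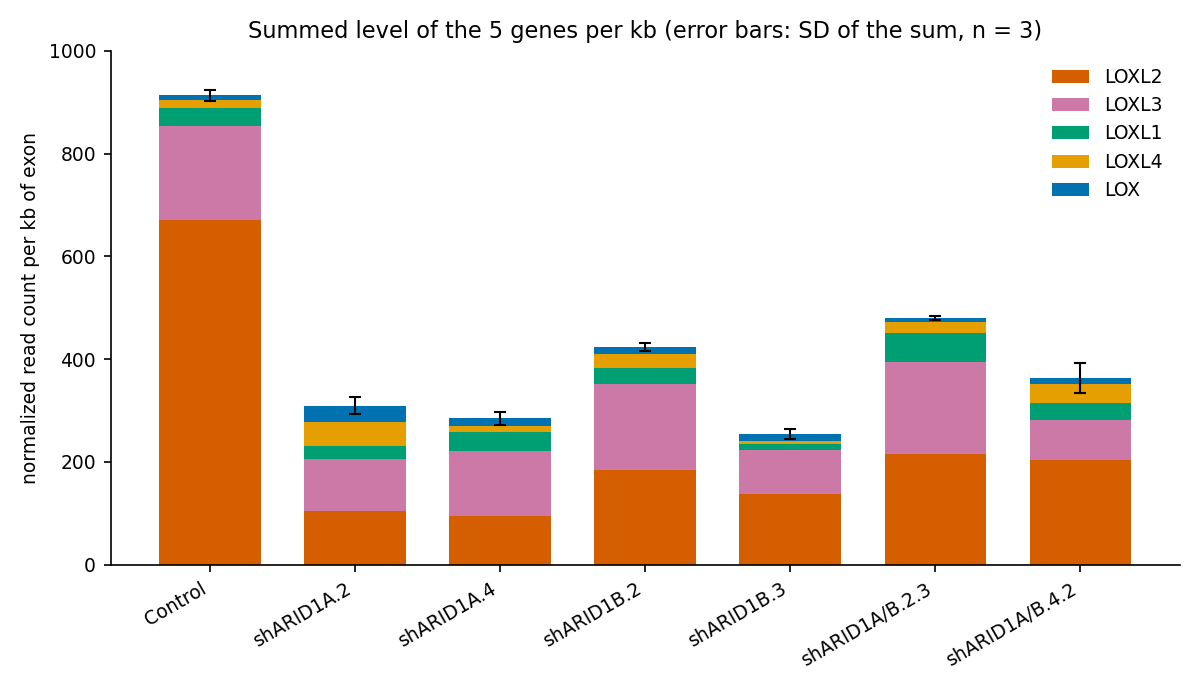
Stacked mean normalized read count per kb of merged exon for the 5 genes by label, with the SD of the sum (n = 3) as error bars. The sum is 913 in Control, most of it LOXL2, and is lower in every silenced condition, while the LOXL3 segment keeps most of its height in shARID1B.2 and shARID1A/B.2.3. The fall of LOXL2 chose the family, so a lower sum was largely fixed in advance.

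Across the 21 libraries, which share 3 Controls and fall into 7 conditions, the members did not follow one another closely. Pearson's r of log2 values ranged from -0.59 for LOX and LOXL2 to 0.61 for LOXL1 and LOXL3, and was 0.51 for LOXL2 and LOXL3 and -0.033 for LOXL2 and LOXL4. Among 13675 genes with a mean of at least 50, those most like LOXL2 were SPDL1 (r = 0.99), ITGAV, the integrin alpha V chain (r = 0.99), and SPATS2L (r = 0.97). ITGAV had a mean of 9385 in Control and 2241, 1861, 3327, 2739, 4146 and 3152 in the silenced conditions in the order above. LOXL3 was most like SULT1C4, B3GALT5-AS1 and PRKCE, LOXL4 like SRPRA, NOVA2 and TSPAN33, LOXL1 like NIPA1, FAR1 and FNDC5, and LOX like CA11, CRYZL1 and TOMM20, with r from 0.91 to 0.97. The values of r for LOXL2 include its fall from Control, which chose the family, so genes lower in every silenced condition could rank high beside it. All values of r describe the libraries and were not tested.

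Genes next to the members, or overlapping them, were examined in the same fit. ENTPD4, whose annotation overlaps LOXL2 on the same strand, had log2 differences from Control of -0.77, 0.64, -0.12, 0.28, 0.48 and -0.59, and R3HCC1, at 910 bp from LOXL2, rose in all 6 conditions by 0.24 to 0.58. SLC25A37, the next protein-coding gene on the other side, had differences of -0.23 to 0.61, and AC090197.1, a transcript opposite LOXL2, of -0.088 to 1.58. None of these 4 was lower in all 6 conditions. LOXL2 was chosen for that trait, so its contrast with these neighbours is only a description. In the same comparisons 63.9% to 76.1% of all genes were called. A change shared along the region was not tested. The counting program's strand setting is not given in the sources used here, so reads of overlapping genes on opposite strands may not be fully separated, and 4 of the members have such a partner that passed the filter: SRFBP1 for LOX, LOXL1-AS1 for LOXL1, AC090197.1 for LOXL2, and HTRA2 and DOK1 for LOXL3. LOXL1-AS1, an antisense RNA with means of 35.6 to 135, fell by 1.61 in shARID1A.4 (adjusted p = 5.13e-11, limma), where LOXL1 was not called, and by 1.47 in shARID1B.3 (adjusted p = 5.26e-10), where LOXL1 also fell. It fell by 1.02 in shARID1A/B.2.3 (adjusted p = 2.06e-07, limma), where LOXL1 rose. DOK1, opposite LOXL3, fell by 0.53 in shARID1A.2, 1.02 in shARID1A.4, 1.18 in shARID1B.3 and 0.37 in shARID1A/B.2.3, and HTRA2 had differences of -0.22 to 0.21. SRFBP1, opposite LOX, had differences of -0.68, 0.14, -0.60, -0.20, 0.15 and -0.22 in the 6 conditions, lowest in shARID1A.2, where LOX was highest. Next to LOXL4, PYROXD2 (-1.18 to 1.29) and R3HCC1L (-0.17 to 0.69) had their highest values in shARID1A/B.4.2, and the antisense AL139241.1 was at 0.89 or less in every library.

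The substrates of the enzymes were examined by lists. Of 12 fibrillar collagen and elastin genes, 9 passed the filter, of which 5, 5, 2, 6, 4 and 5 fell and 3, 2, 5, 1, 2 and 2 rose in the 6 conditions in the order above (all genes lower: 38.2%, 36.6%, 34%, 32%, 34% and 36.1%, and higher: 37.9%, 37%, 31.6%, 31.9%, 35.2% and 35.1%). Their median log2 difference was -0.63, -0.79, 0.26, -0.36, -0.45 and -0.33, against 0.0098 to 0.018 for all genes. COL1A1, the main chain of collagen I, had a Control mean of 12929 ± 175 (SD, n = 3). It fell by 3.24 in shARID1A.2 and fell by 3.97 in shARID1A/B.4.2 (adjusted p = 2.24e-25 and 7.67e-27, limma), but its difference was -0.018 in shARID1B.2. COL3A1 fell by 1.48 in shARID1A.4 and rose by 0.51 in shARID1A.2 and by 0.71 in shARID1B.2, COL5A1 fell by 2.10 in shARID1A.4 and fell by 1.65 in shARID1B.3, and ELN, elastin, fell by 1.19 in shARID1A.2 and by 0.96 in shARID1A/B.4.2 but rose by 0.18 in shARID1A.4.

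Of 6 collagen IV chains, the basement membrane substrate on which LOXL2 is known to act, 3 passed the filter, and 2, 3, 1, 3, 2 and 2 of these fell while 0, 0, 1, 0, 0 and 1 rose, where 32% to 38.2% of all genes fell and 31.6% to 37.9% rose. COL4A1 fell in all 6 conditions, by 0.96, 1.19, 0.15, 0.35, 0.99 and 1.03, from a Control mean of 9250 ± 75.6. COL4A2 fell in 5, by up to 1.71 in shARID1A/B.4.2, and rose by 0.27 in shARID1B.2. COL4A5, at a Control mean of 45.3, rose by 0.74 in shARID1A/B.4.2. The order of COL4A1 was not that of LOXL2. Of 11 genes for collagen hydroxylation and folding, 10 passed the filter, and 5, 8, 6, 7, 4 and 6 fell while 3, 1, 3, 1, 5 and 2 rose (all genes: 32% to 38.2% lower, 31.6% to 37.9% higher), with medians of -0.36 to 0.050. SERPINH1, the collagen chaperone, rose by 0.29, 0.41, 0.29, 0.70 and 0.31 in 5 conditions, and P4HB, a subunit of prolyl hydroxylase, moved by at most -0.35.

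Of 13 genes that process the pro-enzymes or tether them to the matrix, 12 passed the filter, and 10, 9, 4, 9, 8 and 9 fell while 2, 1, 5, 2, 1 and 3 rose (all genes: 32% to 38.2% lower, 31.6% to 37.9% higher), with medians of -0.69, -1.03, -0.010, -0.70, -0.38 and -0.65. PCOLCE, an enhancer of procollagen C-proteinase, fell by 1.56, 1.14, 0.73, 0.75 and 1.69 in the 5 conditions other than shARID1B.2, where it was at -0.04 (adjusted p = 0.44, limma). ADAMTS2, a procollagen N-proteinase, fell by 1.96 in shARID1A.2 and by 1.98 in shARID1A.4, FN1, fibronectin, fell in all 6 by 0.32 to 1.18, and FBN1, fibrillin, fell in 4 conditions, by up to 0.99 in shARID1B.3, but rose by 0.25 in shARID1B.2 and by 0.27 in shARID1A/B.4.2. Copper is the cofactor of the enzymes. Of 11 genes for copper transport and other copper amine oxidases, all passed the filter, and 4, 5, 4, 4, 3 and 3 fell while 5, 6, 5, 4, 6 and 6 rose (all genes: 32% to 38.2% lower, 31.6% to 37.9% higher). SLC31A1, the copper importer, rose in all 6 conditions by 0.16 to 0.85, and ATP7A, the pump that loads secreted copper enzymes, fell in all 6, by 1.98, 0.95, 2.09, 0.36, 1.01 and 1.02.

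Of 16 genes known to regulate lysyl oxidases, all passed the filter, and 12, 14, 9, 10, 11 and 12 fell while 3, 2, 4, 3, 4 and 3 rose (all genes: 32% to 38.2% lower, 31.6% to 37.9% higher), with medians of -0.96, -0.56, -0.17, -0.21, -0.23 and -0.84. HIF1A, the hypoxia factor that induces LOX, fell in all 6. It fell by 1.51 in shARID1A.2, fell by 1.44 in shARID1A/B.4.2 and fell by 0.10 to 0.50 in the others, from a Control mean of 16810 ± 460. LOX was higher than in Control in shARID1A.2 and in shARID1A/B.4.2, although its call in the latter was not stable. A link between HIF1A and LOX in these libraries was not tested. TWIST1, a factor of the mesenchymal state, fell in all 6, by 0.14 to 1.77, while ZEB1 moved by -0.33 to 0.25 and ARNT, the partner of HIF1A, by -0.89 to 0.56. The lists were written with results of these data known, and their counts describe these libraries. For list genes that moved the same way in all 6 conditions, the matching share over all genes is not given. These conditions were compared with the same Control libraries.

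The labelled cell type was checked against marker lists. All 13 adrenergic neuroblastoma markers passed the filter, with HAND2 at 5778 to 19481 and MYCN at 77312 to 426870, and the summed level of the list was 205658 to 211221 in Control and 142877 to 512698 in the silenced libraries. MYCN, with means of 122676 in Control and 418088 in shARID1A.4, made up most of this sum. Of 14 mesenchymal markers 11 passed, and the sum was 62696 to 65286 in Control and 39851 to 74132 in the others. The highest of this list, VIM, NOTCH2, TNC and FOSL2, had Control means of 54216, 4502, 1471 and 1157, whereas PRRX1 and MEOX2 were at 0 in Control. SOX10, a marker of Schwann cells, was at 0 in every library. All 4 fibroblast markers passed. Their sum was 22211 to 22420 in Control, 9670 to 10424 in shARID1A.2, 7515 to 7626 in shARID1A.4, 18177 to 18610 in shARID1B.2, 18824 to 19394 in shARID1B.3, 11638 to 11966 in shARID1A/B.2.3 and 12879 to 13321 in shARID1A/B.4.2, with LUM, DCN, PDGFRA and PDGFRB detected in all 21 libraries. In the 6 conditions in the order above, 8, 5, 9, 7, 5 and 7 adrenergic, 7, 8, 5, 10, 6 and 6 mesenchymal and 3, 4, 2, 2, 4 and 4 fibroblast markers fell, where 32% to 38.2% of all genes did. Of the same lists 4, 6, 2, 5, 8 and 3, then 3, 3, 0, 0, 3 and 1, and then 1, 0, 1, 1, 0 and 0 rose, where 31.6% to 37.9% of all genes did. As with LOXL2, the fibroblast sums were highest in Control and lowest in the libraries labelled shARID1A. Between these ends the orders differed. The sums were higher in the libraries labelled shARID1B than in those labelled shARID1A/B, whereas mean LOXL2 was lower in shARID1B. Among the fibroblast markers only LUM had its highest mean in Control (10900). DCN (1945 in Control) and PDGFRA (1582) had theirs in shARID1B.2, at 4704 and 1678, and PDGFRB (7872) in shARID1B.3, at 8286. The differences of PDGFRA and PDGFRB from Control there were not called (adjusted p = 0.33 and 0.092, limma). The part of the fibroblast markers in the levels of the lysyl oxidases was not tested.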

How the data were processed

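RNA-Seq libraries were made from polyadenylated RNA with a stranded kit. For every gene, the authors deposited reads divided by a library's size factor (0.841 to 1.29), a normalized signal. The submitters' processing notes name STAR 2.5.3a, RSEM 1.3.0, DESeq2 1.26.0 and GRCh38. Dividing by the step of 1 read gave whole reads in 100% of values within 0.1 read, with a largest deviation of 0.0194 read. Their 3 tables of comparisons hold fold changes and p-values and were not used. Of 60728 identifiers, 58541 matched GENCODE release 29 without the version.

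On the recovered reads, edgeR's expression filter left 18584 genes. The deposited signal, plus a pseudocount of 1 and on the log2 scale, went into limma with a trend over 21 libraries in 7 conditions, with Benjamini-Hochberg adjustment over all genes, 6 contrasts with Control and 6 between silenced conditions. The pseudocount understates changes of low genes. Alternatives were edgeR's quasi-likelihood test with TMM and DESeq2's Wald test on the recovered reads, scaling to total reads, pseudocounts of 0.5 and 5, no filter (35892 genes), at least 10 reads in every library (14637 genes), only the libraries compared, the replicate number as a block, 4 label groups, the longest transcript as length, and each library left out in turn. The limma test was run on simulated reads with known changes. The members, the gene lists and the tests were chosen with earlier results of these data known. Apart from SOX10, the list of Schwann cell markers is not reported here. Besides members, the genes named are the targeted genes, up to 4 genes per list with the highest mean, overlapping and neighbouring genes, and the 3 genes most correlated with each member; the markers PRRX1, MEOX2 and SOX10 were added after their values were seen because they were at 0. Versions were R 4.3.3, limma 3.58.1, edgeR 4.0.16, DESeq2 1.42.0, Python 3.11.15 (pandas 2.3.3, numpy 2.4.6, matplotlib 3.10.9 and scipy 1.17.1). Depth per gene limits precision for LOX, LOXL1 and LOXL4, which stayed at or under 187, 218 and 184 normalized reads.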

Additional observations from a re-analysis of the deposited data

Results flagged for a closer look

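LOXL4 moved in opposite directions in the 2 conditions labelled shARID1B. All 3 libraries of shARID1B.2 were above the Control mean, at 100.5 to 104, and all 3 of shARID1B.3 were under it, at 12.1 to 18.9. The difference between them was 2.62 on the log2 scale (SE 0.15, 95% interval 2.30 to 2.93, adjusted p = 1.25e-13, limma), and stayed between 2.44 and 2.74 when any 1 of the 6 libraries was left out. ARID1A was at 1882 to 1962 in the first and at 2450 to 2507 in the second, ARID1B was at 4913 to 5056 and at 6038 to 6182, and the part of these in the difference was not tested.

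LOX lay on opposite sides of Control in the 2 conditions labelled shARID1A/B, but neither difference from Control was stable. The fall in shARID1A/B.2.3 (-0.41) was lost without any 1 of 4 libraries and under 5 other settings, and the rise in shARID1A/B.4.2 (0.43) without any 1 of 3 libraries and with no filter. LOX was at 27.2 to 47.9 in shARID1A/B.2.3 and at 68.4 to 79.3 in shARID1A/B.4.2, with Control at 51.4 to 55.2 in between. The difference was -0.84 on the log2 scale (SE 0.17, 95% interval -1.20 to -0.49, adjusted p = 0.00011, limma). It was -0.58 without shARID1A/B.2.3 replicate 3, the lowest library.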

How the results depend on the processing

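Of 54 differences with a test, 47 kept direction and call when values were scaled to total reads, which moved the median of all genes by 0.17 in shARID1A.2, 0.13 in shARID1B.2 and 0.18 in shARID1A/B.4.2 against Control. Of the rest, 6 uncalled values changed sign: LOXL3 in shARID1B.2 (0.0017) and shARID1A/B.2.3 (0.012), LOXL1 in shARID1A/B.4.2 (0.060), LOX for shARID1B.2 minus shARID1B.3 (0.045), LOXL2 for shARID1A/B.2.3 minus shARID1A/B.4.2 (-0.064) and LOXL3 for shARID1A/B minus shARID1B (0.021). The fall of LOX in shARID1A/B.2.3 was no longer called with this scaling (-0.38), with edgeR (-0.36), with DESeq2 (-0.38), with no filter (-0.41) or with only the libraries compared (-0.41), at adjusted p = 0.059 to 0.13. The rise of LOX in shARID1A/B.4.2 was lost with no filter (0.43, adjusted p = 0.053). LOXL2 for shARID1A.2 minus shARID1A.4 was lost with edgeR (0.14), DESeq2 (0.14) and no filter (0.14). Gained were LOXL3 in shARID1B.2 with only the libraries compared (-0.13), and LOXL4 for shARID1A minus shARID1A/B with edgeR (-0.23) and with only the libraries compared (-0.22). As 4 label groups, calls were lost for shARID1A minus shARID1B in LOX (0.69), LOXL1 (0.56) and LOXL4 (1.08), for shARID1A/B minus shARID1B in LOX (-0.47) and LOXL4 (1.3), and for shARID1A minus shARID1A/B in LOXL1 (-0.53), and the counts of all genes called fell from 12510, 13039 and 11000 to 3980, 5177 and 1731. Requiring 10 reads in every library lowered the counts over 2-fold from 2629 to 1261 (higher, shARID1A.2), 1223 to 806 (lower, shARID1B.3) and 1910 to 805 (higher, shARID1A/B.4.2), and changed no call of a member, nor did either other pseudocount. With the longest transcript as length, LOXL2 made up 78.2% of the family in Control and 40.9%, 39.2%, 50.6%, 60.9%, 51.2% and 62.8% in the silenced conditions. The cause of these changes was not tested.

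With 1 library left out, LOX ranged from -0.54 to -0.15 in shARID1A/B.2.3 (call lost without Control replicate 1, 2 or 3 or its own replicate 3), 0.36 to 0.47 in shARID1A/B.4.2 (lost without Control replicate 2 or 3 or its replicate 1), 0.36 to 0.56 in shARID1B.2 (lost without Control replicate 2 or 3 or its replicate 2 or 3), 0.45 to 0.59 in shARID1B.3 (lost without its replicate 3) and -0.16 to 0.052 for shARID1B.2 minus shARID1B.3. LOXL1 ranged from -0.071 to 0.024 in shARID1A.4 and from -0.36 to -0.13 in shARID1B.2 (called without its replicate 1). LOXL2 ranged from 0.12 to 0.16 for shARID1A.2 minus shARID1A.4 (kept only without shARID1A.4 replicate 2) and from -0.00018 to 0.19 for shARID1A/B.2.3 minus shARID1A/B.4.2 (0.19 without shARID1A/B.4.2 replicate 2). LOXL3 ranged from -0.052 to 0.051 for shARID1A/B minus shARID1B and from -0.11 to -0.0096 for shARID1A minus shARID1A/B (called without shARID1A/B.4.2 replicate 1).

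Replicate numbers did not pair the libraries, since in 0 of 63 same-numbered pairs was the correlation of deviations from the condition means over 0.1 (-0.088 to 0.053). With the replicate number as a block no call of a member changed, and LOXL4 for shARID1B.2 minus shARID1B.3 was 2.62.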
